A study of Homo sapiens with 6 samples.

Results

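The Kruppel-like factor (KLF) genes examined here were KLF2, KLF3, KLF4, KLF5, KLF6, KLF7, KLF9, KLF10, KLF11 and KLF13. They were found by gene symbol and make up 10 of the 36458 symbols in the count table, and all 10 passed the filter on low counts. The libraries come from DMS114, a human cell line derived from small cell lung cancer. Cells received 2.5 mM β-alanine, a β-amino acid that does not occur in proteins, or the same volume of vehicle, and polyadenylated RNA was read after 48 h in 3 libraries per group. The study concerns stathmin 2, β-alanine metabolism and neuronal invasion, and the comparison asks which transcripts the compound changes. All libraries are of this 1 line, and separate cultures are not mentioned in the labels, which means that the p-values reflect the scatter among 6 libraries, part or all of which may be technical. One library stood apart from its group: the chi-square per gene of β-alanine library 1 was 4.199 and 4.905 against β-alanine libraries 2 and 3 and 4.54 to 5.44 against the controls. Libraries 2 and 3 were at 2.25 from each other and 12.2 to 16.4 from the controls. This measure grows with depth, and library 1 was the shallowest.

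KLFs are transcription factors that bind GC-rich and CACCC sequences through zinc fingers at the C-terminal end, and they share this binding with the related SP factors. Their N-terminal parts differ and sort the family into groups. KLF3 and its closest relatives repress genes through the corepressor CtBP. KLF2, KLF4, KLF5, KLF6 and KLF7 mostly act as activators, and KLF9, KLF10, KLF11 and KLF13 can recruit the Sin3 corepressor. Several KLF genes respond early to growth factors, hormones or stress, and members of the family are known for roles in quiescence, differentiation and growth arrest.

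In the β-alanine libraries KLF10, KLF9, KLF13 and KLF5 rose and KLF3 fell. The other 5 members, KLF2, KLF4, KLF6, KLF7 and KLF11, did not pass the test. Of the 6 tested genes of the Sin3-binding group, KLF9, KLF10 and KLF13 rose and KLF11, KLF14 and KLF16 were not called, and no test compared the groups of the family. Without β-alanine library 1 the same 4 members rose and KLF3 fell, with log2 fold changes of 0.82 for KLF10, 0.43 for KLF9, 0.20 for KLF13, 0.86 for KLF5 and -0.14 for KLF3. These 5 calls among 10 members (edgeR's quasi-likelihood test, adjusted p under 0.05 over all genes) stand beside 27.9% of the 17331 genes tested, with 14.1% rising and 13.8% falling. The median log2 fold change was 0.12 over the 10 members and -0.003 over all genes tested. All β-alanine libraries lay above all controls for 5 members, against 19.9% of tested genes, and below them for 3, against 19.2%. The groups did not overlap for 8 of 10 members, against 39.1% of tested genes. In bulk RNA, fewer cells that express a gene and less RNA of it per cell cannot be told apart. A p adjusted over these members alone is not given, since they were chosen with earlier results of these data known.

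Promoter sequences are shown for the members that rose and have an entry in the RefSeq promoter table (KLF9, KLF13 and KLF5), and for KLF6, which did not pass the test, as a comparison. Each is the 250 bases before an annotated start (GRCh38.p14, 5′ to 3′ on the gene's strand). They span chr9:70414658-70414907 on the minus strand for KLF9, chr15:31326585-31326834 on the plus strand for KLF13, chr13:73058755-73059004 on the plus strand for KLF5 (the second of 2 starts in the table), and chr10:3785210-3785459 on the minus strand for KLF6. Capitals mark the CCAAT box, searched as CCAAT on both strands, where ATTGG is its reverse complement.
KLF9: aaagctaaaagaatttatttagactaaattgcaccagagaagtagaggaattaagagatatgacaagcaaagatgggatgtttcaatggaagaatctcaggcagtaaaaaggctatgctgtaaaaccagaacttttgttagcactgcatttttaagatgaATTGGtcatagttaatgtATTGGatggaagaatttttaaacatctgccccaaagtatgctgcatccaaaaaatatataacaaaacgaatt
KLF13: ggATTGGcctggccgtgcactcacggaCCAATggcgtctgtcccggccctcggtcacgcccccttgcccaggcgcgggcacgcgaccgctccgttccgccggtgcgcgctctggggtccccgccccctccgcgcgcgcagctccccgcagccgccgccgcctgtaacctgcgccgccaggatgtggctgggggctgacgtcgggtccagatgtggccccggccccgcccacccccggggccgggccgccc
KLF5: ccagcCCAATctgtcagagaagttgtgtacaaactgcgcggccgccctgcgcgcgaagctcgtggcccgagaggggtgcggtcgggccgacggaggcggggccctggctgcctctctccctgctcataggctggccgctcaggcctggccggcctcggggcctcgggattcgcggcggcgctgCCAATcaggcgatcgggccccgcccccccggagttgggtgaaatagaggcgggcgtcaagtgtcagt
KLF6: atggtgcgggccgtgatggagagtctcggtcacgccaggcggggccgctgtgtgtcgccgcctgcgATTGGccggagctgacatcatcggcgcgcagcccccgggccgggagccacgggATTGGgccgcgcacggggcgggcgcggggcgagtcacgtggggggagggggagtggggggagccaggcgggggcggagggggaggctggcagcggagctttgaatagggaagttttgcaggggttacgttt
Each of these 4 windows holds 2 CCAAT boxes, and they are the only ones of the 13 member windows that do. The second KLF5 start and KLF6 as the comparison were picked by hand, without a rule set beforehand. That all windows shown share this motif is therefore not a result about the members that rose. At least 1 is held by 32% of the 35116 promoters of the same length in the table. The share with 2 was not counted, and the CCAAT box is 1 of several motifs searched. The window at the first KLF5 start has no CCAAT box and no GC box, a TATA box (TATAAA on either strand, in 10.7% of promoters) and a GC content of 40.8%. KLF7, which did not pass the test, also had a CCAAT box in 2 of its 4 windows, while the windows of KLF2, KLF4 and KLF11 had none. The GC content of the KLF9 window is 32.4%, lower than in all but 2.92% of promoters, against 78.8% for KLF13, 70.8% for the second KLF5 window, 72.4% for KLF6 and a median of 58% over all promoters. It holds no GC box (GGGCGG on either strand, present in 42.6% of promoters), whereas the KLF13 window has 3 and the second KLF5 window and the KLF6 window have 2 each. The KLF11 window at its second listed start has a full cAMP response element (TGACGTCA), a match found in 1.65% of promoters. Whether this element was in use was not tested. A MEF2 site was matched in the KLF2 window, as in 2.8% of promoters. These matches are descriptions of letters, and the counts do not show which start site the cells used. KLF3 and KLF10 are not shown.

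KLF10, first described as a gene induced early by TGF-β, was the most abundant of the 10 members per length and rose. It lies on chromosome 8 from 102648784 to 102655725 (GRCh38, RefSeq). KLF10 stood at 91.8, 127 and 116 CPM (counts relative to library size, scaled by TMM) in β-alanine libraries 1, 2 and 3, and at 67.8, 67.8 and 70.1 CPM in control libraries 1, 2 and 3. The controls lay close together, and all 3 β-alanine libraries lay above them, with library 1 the lowest. Group means were 112 ± 18.2 and 68.5 ± 1.31 CPM (SD, n = 3 per group). The fitted log2 fold change was 0.72 ± 0.12 (SE; 95% interval 0.43 to 1.01), a 1.65-fold rise, and the Benjamini-Hochberg adjusted p was 0.00695 (edgeR's quasi-likelihood test). Among all tested genes, 331 had a larger fitted log2 rise (1.91%). The call held without each library in turn, with the largest adjusted p, 0.046, without β-alanine library 3.

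KLF11, the paralog of KLF10 that also responds to TGF-β in other cells, showed no such rise. It stood at 51.2, 49.2 and 48.0 CPM after β-alanine and at 52.3, 51.7 and 51.4 CPM in controls (chromosome 2 from 10043550 to 10054836). Every β-alanine library was slightly below every control, but the log2 fold change of -0.07 ± 0.05 (SE; 95% interval -0.18 to 0.03) did not pass the test (adjusted p = 0.322, edgeR's quasi-likelihood test). KLF11 overlaps an annotated antisense gene, AC104794.4, and no source says whether reads were counted by strand. The ratio of KLF10 to KLF11 counts within a library needs no scaling between libraries. It was 1.79, 2.59 and 2.42 in treated libraries 1, 2 and 3, while controls had 1.30, 1.31 and 1.36. Pairs for such ratios were chosen after their values were seen, so they are given without a test.

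KLF9, which glucocorticoids and thyroid hormone induce in many tissues and which restrains proliferation, rose to a smaller extent. It was at 24.9, 30.2 and 27.4 CPM after β-alanine and at 21.7, 22.3 and 19.7 CPM in controls (chromosome 9 from 70384604 to 70414657). The groups did not overlap, and β-alanine library 1 was again the closest to controls. The log2 fold change was 0.38 ± 0.08 (SE; 95% interval 0.22 to 0.54), a 1.30-fold rise (adjusted p = 0.000849, edgeR's quasi-likelihood test). Its p was the smallest of the family in this fit, but the order depended on the method. KLF10 had the smaller adjusted p with the DESeq2 Wald test (3.57e-06 against 0.00121 for KLF9) and limma-voom (9.23e-06 against 0.0014). The same held in edgeR without robust shrinkage, without a filter or with the replicate block. KLF9 kept the smaller one with the other scalings, the CPM filter and thinning, and fits that left out a library differed. The call for KLF9 held in all 6 fits that left out a library (adjusted p up to 0.0164) and in all 10 fits with other scalings, filters or tools (up to 0.00163).

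KLF13, a close relative of KLF9 known as an activator of chemokine transcription in T cells, rose by 0.18 ± 0.05 on the log2 scale (SE; 95% interval 0.08 to 0.28; adjusted p = 0.00834, edgeR's quasi-likelihood test). It stood at 79.9, 86.4 and 86.7 CPM after β-alanine and at 73.8, 77.8 and 72.9 CPM in controls (chromosome 15 from 31326835 to 31435665). The groups were separated, with a small gap between β-alanine library 1 and control library 2. The call for KLF13 was lost in edgeR's quasi-likelihood test without β-alanine library 2 (adjusted p = 0.0552), β-alanine library 3 (0.0563) or control library 3 (0.0559). The KLF9 to KLF13 count ratio was 0.311, 0.349 and 0.316 after treatment, while controls had 0.295, 0.287 and 0.270. The ranges of this ratio were separate, with KLF9 moving further than KLF13.

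KLF3, a repressor that works through CtBP and limits the activity of other KLFs at shared sites, was the member that fell. It had 35.2, 37.5 and 37.5 CPM after β-alanine and 43.5, 39.7 and 40.5 CPM in controls (chromosome 4 from 38664199 to 38701517). No β-alanine library reached the level of a control. The log2 fold change was -0.16 ± 0.06 (SE; 95% interval -0.28 to -0.04; adjusted p = 0.0457, edgeR's quasi-likelihood test). This call was close to the threshold and was lost with the DESeq2 Wald test (adjusted p = 0.0946), with limma-voom (0.0532), with library totals (0.0804), with no filter on low counts (0.0876) and after thinning (0.0552). It was also lost in 5 of the 6 fits that left out a library (adjusted p from 0.0624 to 0.215), the exception being β-alanine library 1. KLF3 overlaps the antisense gene KLF3-AS1 in its exons, which had 18 to 31 counts a library against 506 to 1250 for KLF3, and reads of the pair cannot be told apart without strand. The KLF10 to KLF3 count ratio was 2.61, 3.40 and 3.11 after β-alanine and 1.56, 1.71 and 1.73 in controls.

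**Figure D1:**
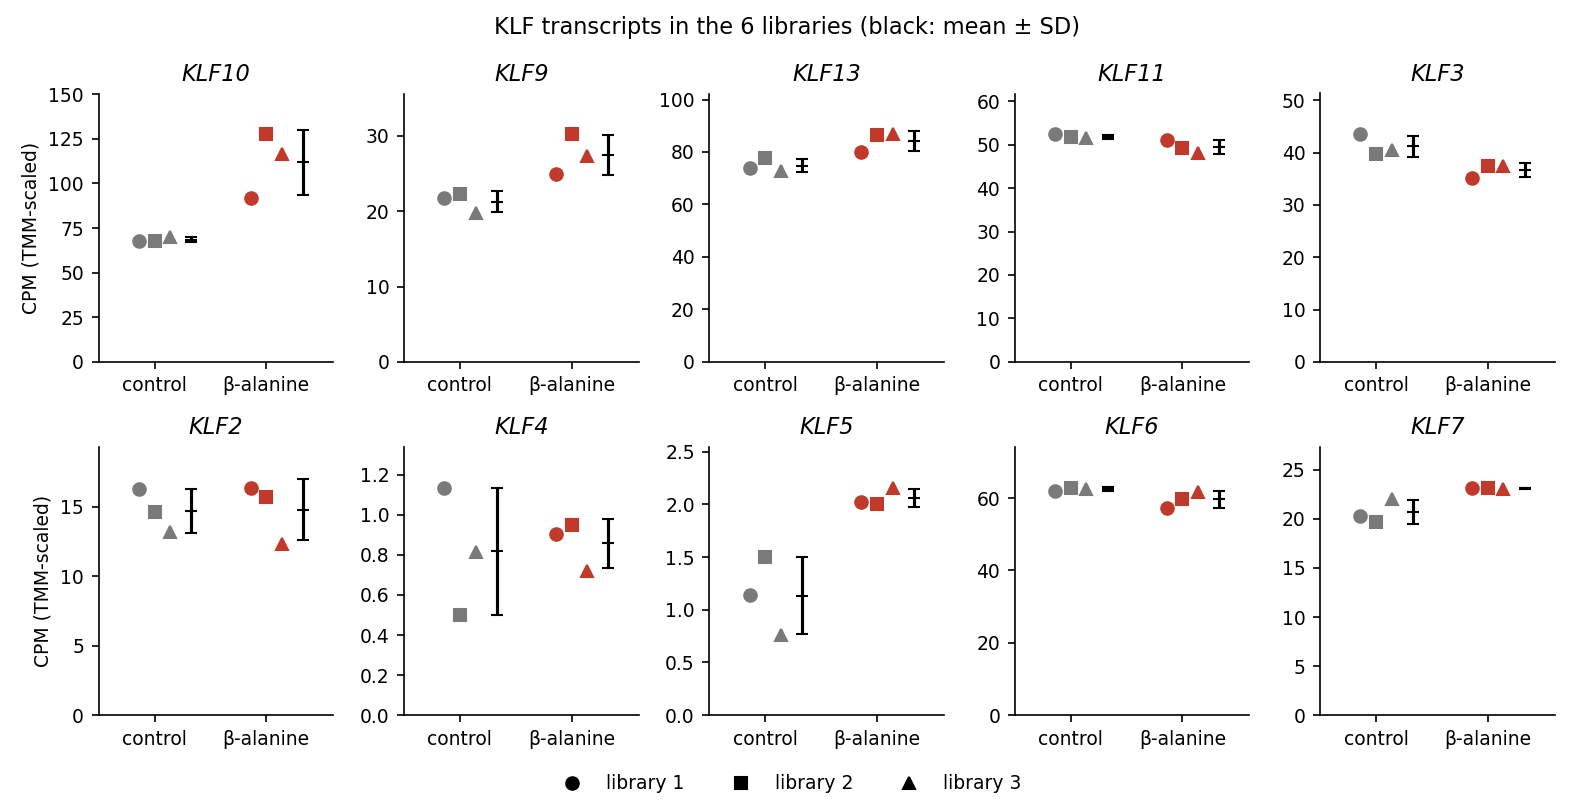
Normalised level of each KLF transcript in CPM (TMM-scaled, linear axis from 0) in the 3 control (grey) and 3 β-alanine (red) libraries, with the mean and SD in black. KLF10 lies at 67.8 to 70.1 CPM in controls and 91.8 to 127 CPM after β-alanine, while KLF2 and KLF4 overlap between groups.

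Among the activators, KLF5 had the largest fold change of the family, from a low level. KLF5 drives proliferation in gut and other epithelia. It had 29, 55 and 72 raw counts in treated libraries 1, 2 and 3, while controls had 21, 33 and 15, or 2.02, 2.01 and 2.16 CPM against 1.14, 1.501 and 0.765 CPM (chromosome 13 from 73054976 to 73077538). The β-alanine libraries lay close together above the controls, which differed among themselves by more. The log2 fold change was 0.85 ± 0.24 (SE; 95% interval 0.36 to 1.34; adjusted p = 0.00917, edgeR's quasi-likelihood test). The call for KLF5 was lost without control library 3, its lowest control (0.63, adjusted p = 0.0676), and when all libraries were thinned to the smallest total (0.62, adjusted p = 0.112).

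KLF4, a factor of epithelial differentiation and of reprogramming to pluripotency, was close to the limit of detection. It had 13, 26 and 24 counts after β-alanine and 21, 11 and 16 in controls, which is 0.50 to 1.14 CPM over the 6 libraries (chromosome 9 from 107484852 to 107489769). The groups overlapped, and the 95% interval of the log2 fold change ran from -0.59 to 0.73 (adjusted p = 0.898, edgeR's quasi-likelihood test). On the linear scale this interval spans 0.665 to 1.66 of the control level.

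KLF2, which maintains quiescence in endothelium and T cells, overlapped between groups as well. It stood at 16.4, 15.7 and 12.3 CPM after β-alanine and 16.3, 14.6 and 13.2 CPM in controls (chromosome 19 from 16324826 to 16328685), with a log2 fold change of -0.01 ± 0.11 (SE; 95% interval -0.24 to 0.21). The spread within each group was wider than the difference between the means. KLF2 has pseudogene copies, of which KLF2P1, KLF2P2 and KLF2P4 had 0 to 13 counts in any library, and reads that fit both a copy and the gene may be lost or shared.

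KLF6, a growth-restraining factor induced by injury, was among the more abundant members. It had 57.2, 59.8 and 61.8 CPM after β-alanine and 62.0, 62.9 and 62.6 CPM in controls (chromosome 10 from 3775996 to 3785209). The log2 fold change was -0.06 ± 0.05 (SE; 95% interval -0.16 to 0.04; adjusted p = 0.369, edgeR's quasi-likelihood test), and on the linear scale the interval spanned 0.892 to 1.03 of the control level. KLF7, known for roles in neurite outgrowth and sensory neuron survival, stood at 23.2, 23.1 and 23.0 CPM after β-alanine and 20.3, 19.7 and 22.0 CPM in controls (chromosome 2 from 207074137 to 207173851). Its β-alanine libraries all lay above the controls, with a log2 fold change of 0.16 ± 0.07 (SE) that did not pass (adjusted p = 0.0997, edgeR's quasi-likelihood test). The 95% interval, which is not adjusted for the number of genes tested, was 0.013 to 0.31. KLF7 and KLF13 differed little in fitted change (0.16 and 0.18), and whether changes differed between members was not tested.

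**Figure D2:**
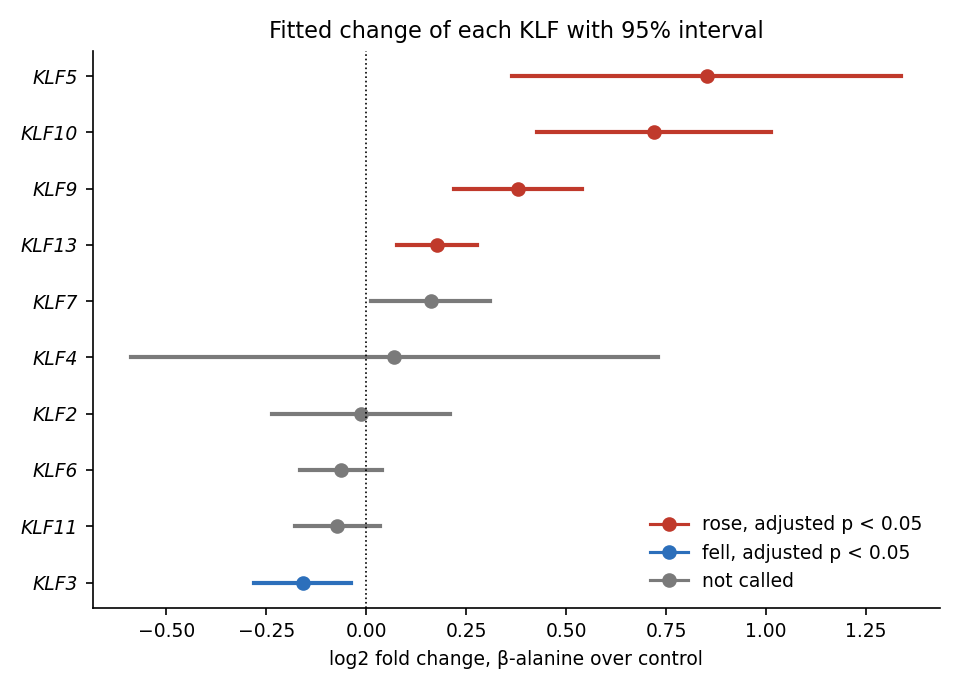
Fitted log2 fold change of β-alanine over control for each KLF (point) with its 95% interval (line), from edgeR's quasi-likelihood fit of 6 libraries. KLF10, KLF9, KLF13 and KLF5 rose (red), KLF3 fell (blue), and the intervals of KLF2, KLF4, KLF6 and KLF11 include 0. KLF7 was not called although its interval lies above 0, since the intervals are not adjusted for the number of genes tested.

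The size of the rise differed between the β-alanine libraries for some members and not for others. Relative to the control mean, the log2 level of KLF10 was higher by 0.42, 0.89 and 0.76 in treated libraries 1, 2 and 3, and KLF9 by 0.23, 0.51 and 0.36. KLF13 followed the same order of library 1 against the others, at 0.095, 0.208 and 0.212. In contrast KLF5 was at 0.83, 0.82 and 0.93, KLF7 at 0.165, 0.161 and 0.156, and KLF3 at -0.23, -0.14 and -0.14. Library 1 was thus the weakest for KLF10, KLF9 and KLF13 and the strongest for the fall of KLF3. It was also the shallowest library, with 14433801 counts against 18814876 to 32909568 in the others, and the part of depth in this was not tested.

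Levels can be compared between genes only per length, so CPM values were also divided by the merged exon length in kilobases from GENCODE release 29, which gives RPKM. In controls the order from high to low was KLF10, KLF11, KLF6, KLF13, KLF2, KLF3, KLF9, KLF7, KLF5 and KLF4. KLF10 was at 17.1 ± 0.328 RPKM (SD, n = 3), KLF11 at 11.3 ± 0.101 and KLF6 at 10.2 ± 0.0757, and these 3 did not overlap. The range of KLF13 (7.95 ± 0.280) overlapped that of KLF2 (7.28 ± 0.773), which overlapped that of KLF3 (6.54 ± 0.318). KLF9 was lower at 4.11 ± 0.269 and KLF7 at 2.23 ± 0.130, both without overlap. KLF5 (0.291 ± 0.0945) and KLF4 (0.223 ± 0.0868) overlapped at the bottom, above only 7.23% and 4.98% of tested genes with a length, whereas KLF10 was above 83.7%. The order of the means was the same after β-alanine. Merged exon length counts every annotated exon, which understates genes whose long forms are not used.

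**Figure D3:**
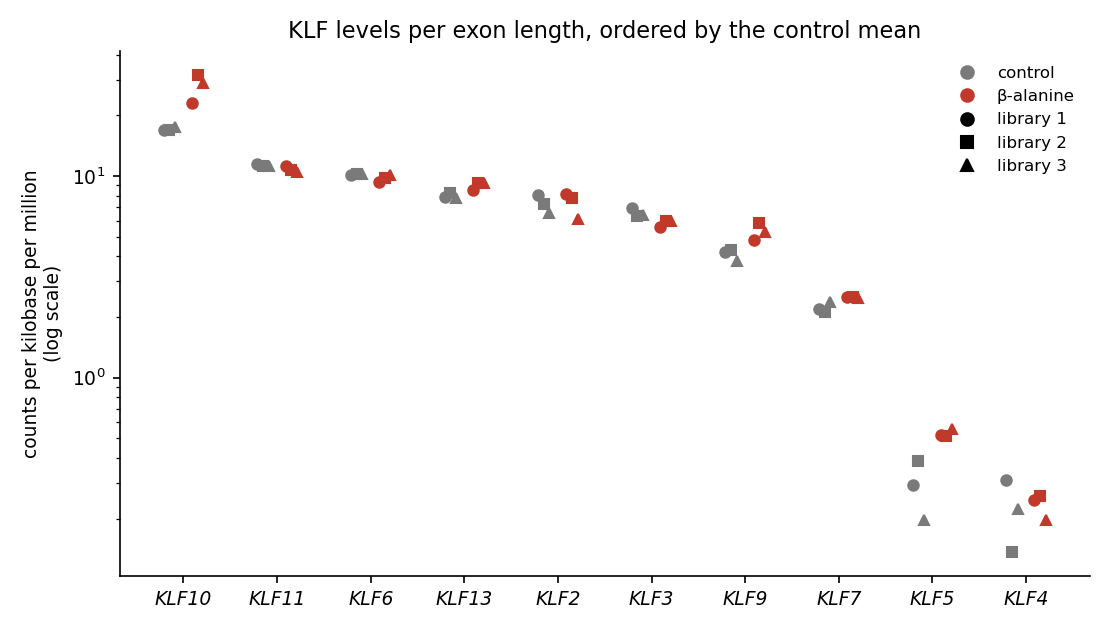
Level of each KLF in RPKM, the CPM per kilobase of merged exon (log axis), in control (grey) and β-alanine (red) libraries, with genes ordered by the control mean. Of the 10 members, KLF10 is highest in every library, and KLF5 and KLF4 are lowest.

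The makeup of the RNA of these 10 members differed between the groups, with a larger share of KLF10 after β-alanine. The summed level of the 10 members was 73.7, 84.3 and 79.4 RPKM in treated libraries 1, 2 and 3, while controls had 68.2, 67.2 and 66.2 RPKM. KLF10 made up 31.1%, 37.8% and 36.6% of this sum after β-alanine and 24.8%, 25.2% and 26.4% in controls. The share of KLF11 was 13.7 ± 1.29% against 16.8 ± 0.119%, that of KLF6 12.3 ± 0.639% against 15.1 ± 0.318%, and that of KLF3 7.38 ± 0.281% against 9.73 ± 0.373% (SD, n = 3 per group). KLF9 took 6.70 ± 0.201% against 6.11 ± 0.340%. Shares must add up, so a lower share of KLF11 or KLF6 accompanies the higher share of KLF10 and is not a fall in itself. The sum leaves out the KLF genes outside the members. Of these, KLF16 was at 23.6 ± 1.57 RPKM after β-alanine and 25.5 ± 0.566 RPKM in controls, where KLF10 was at 17.1 RPKM. KLF10 is therefore not the most abundant KLF transcript of the control libraries.

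**Figure D4:**
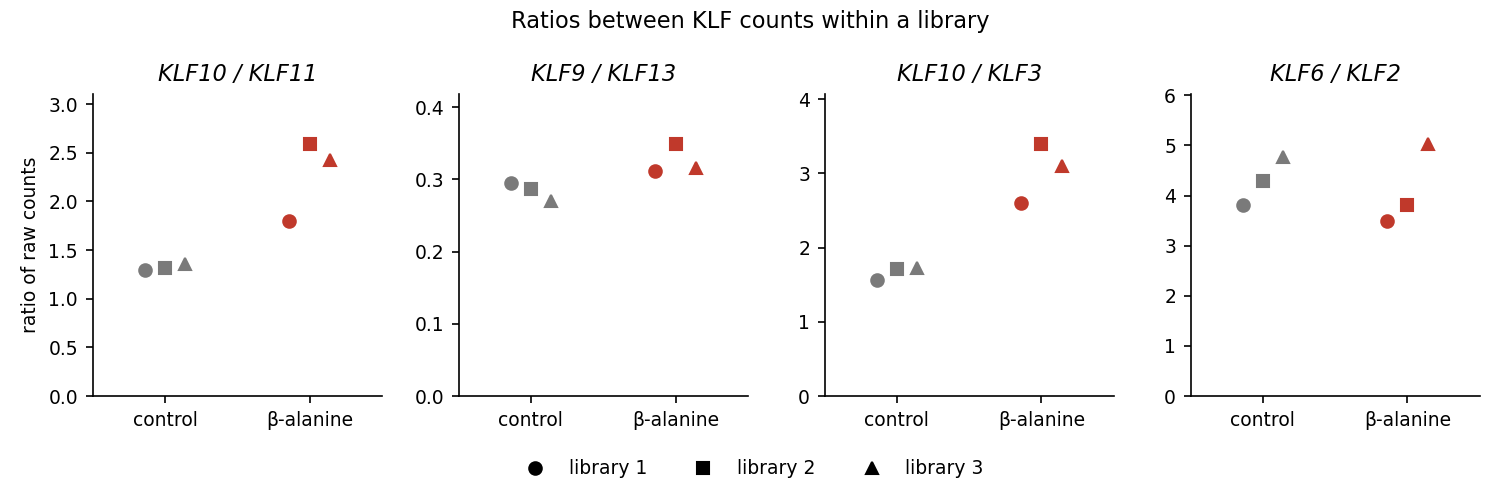
Ratio of raw counts of 2 KLF genes within each library (linear axis from 0), for control (grey) and β-alanine (red) libraries. KLF10 over KLF11 lies at 1.30 to 1.36 in controls and 1.79 to 2.59 after β-alanine, while KLF6 over KLF2 overlaps between groups.

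No KLF gene outside the 10 members was called. Of 8 such genes, KLF1, KLF8, KLF14, KLF15 and KLF16 were tested, and 0 rose and 0 fell in edgeR's quasi-likelihood test. Over all tested genes 27.9% were called. At an unadjusted p under 0.05 KLF15 was higher and KLF16 lower, and 0 were called with the DESeq2 Wald test or limma-voom. Without β-alanine library 1, 1 of the 5 fell, in a fit that called 36.2% of all tested genes. KLF16, the abundant member of the Sin3-binding group outside the list, had 69.7 ± 4.65 CPM after β-alanine and 75.5 ± 1.67 CPM in controls (SD, n = 3 per group). Of the 9 SP factors, which compete with KLFs for the same sequences, 5 were tested and SP4 alone was called, again beside 27.9%. SP4, a factor enriched in neurons, rose by 0.28 ± 0.07 on the log2 scale (SE; adjusted p = 0.00381, edgeR's quasi-likelihood test). SP1, the most abundant, was at 278 ± 5.43 against 267 ± 8.19 CPM, and SP3, with a log2 fold change of -0.08 ± 0.05 (SE), did not pass. In the fit without β-alanine library 1, which called 36.2% of all tested genes, 1 SP factor rose and 1 fell.

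Of the cofactors through which KLFs act, SAP30 was called. Of 14 corepressors and coactivators, 1 rose and 0 fell in edgeR's quasi-likelihood test, beside 14.1% and 13.8% of all tested genes. The median log2 fold change was -0.03. The gene that rose was SAP30, a subunit of the Sin3 complex (0.37 ± 0.08, SE). SIN3A itself stood at 143 ± 1.38 against 141 ± 0.450 CPM, and CTBP2 at 134 ± 0.337 against 136 ± 0.813 CPM. Without β-alanine library 1, 4 of the 14 fell, in a fit where more genes were called throughout. Over all genes 3294 of 17955 fell in that fit, against 2389 of 17331 with all libraries.

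Of 14 tested enzymes that control the stability of KLF proteins, 6 rose and 0 fell, with a median of 0.09. Over all tested genes 14.1% rose and 13.8% fell. WWP1, a ubiquitin ligase for KLF5 and KLF2, rose by 0.22 ± 0.05 and ITCH, a related ligase, by 0.19 ± 0.05 (SE, log2), and both calls held without each library in turn. The deubiquitinases BAP1 and USP3 rose by 0.12 ± 0.04 and 0.17 ± 0.06. In edgeR's quasi-likelihood test BAP1 lost its call in 4 of the 6 fits that left out a library (adjusted p from 0.0548 to 0.136), the exceptions being β-alanine library 1 and control library 2, and USP3 without any library except β-alanine library 1 (0.0794 to 0.169). The count of this list fell from 6 to 2 without β-alanine library 2 or control library 1, and to 3 when β-alanine library 3, control library 2 or control library 3 was left out. These fits called 17.0% to 21.3% of all tested genes, against 27.9% with all libraries. With the DESeq2 Wald test, which called 24.5% of all tested genes, the count of the list was 2. Without β-alanine library 1, 6 of the list rose and 2 fell, in a fit that called 36.2% of all tested genes. With limma-voom, which called 28.6%, 6 rose and 1 fell.

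The shares called among genes upstream of KLFs in other cells were read against the 27.9% over all tested genes, of which 14.1% rose and 13.8% fell. In the ERK5 and MEF2 pathway, which induces KLF2 and KLF4 in endothelium, 2 of 8 rose and 0 fell, a share near that over all genes. These were MEF2A, a DNA-binding factor (0.24 ± 0.04, SE), and MAP3K2, a kinase at the head of the pathway (0.25 ± 0.06), while KLF2 and KLF4 did not pass the test. Of 13 TGF-β pathway genes, 1 rose and 1 fell. SKIL, a SMAD corepressor, rose by 0.32 ± 0.07, and SKI, its relative, fell by 0.12 on the log2 scale. SKI's call was lost in edgeR's quasi-likelihood test without any library except β-alanine library 1 (adjusted p from 0.0571 to 0.167). SMAD7, a feedback inhibitor that KLF10 represses in other cells, was at 1.82 ± 0.459 against 1.54 ± 0.460 CPM and did not pass. The receptor gene TGFBR2 was close to the detection limit, at 0.829 ± 0.262 and 0.615 ± 0.0891 CPM.

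Of 9 genes of the glucocorticoid receptor list, which holds the receptor and targets, 2 rose and 1 fell, a share near the 27.9% called over all tested genes. The clock gene PER1 rose by 0.30 ± 0.04 (SE, log2) and ERRFI1, a feedback inhibitor of EGFR, by 0.33 ± 0.08. FKBP5, a chaperone and a standard readout of the receptor, changed by -0.23 ± 0.06, a call lost in edgeR's quasi-likelihood test without β-alanine library 3 (adjusted p = 0.0623) or control library 2 (0.0745). The receptor gene NR3C1 had a log2 fold change of -0.02 ± 0.06 (SE) and did not pass.

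Genes reported as direct targets of one KLF or another in other cell types moved both ways. Of 22 tested, 4 rose and 5 fell, beside 14.1% and 13.8% of all tested genes, with a median log2 fold change of -0.05. HMOX1, heme oxygenase 1, rose by 0.78 ± 0.11 (SE), EDN1, endothelin 1, by 0.47 ± 0.06, and ATF3, a stress-induced factor, by 1.94 ± 0.28 from 0.712 ± 0.135 CPM (SD, n = 3). CCND1, cyclin D1, changed by -0.16 ± 0.03. Targets that fell further were NOS3 (-1.03 ± 0.23), LAMA1 (-0.54 ± 0.13) and COL1A1 (-0.32 ± 0.10), also named after their values were seen. CDKN1A, the cell cycle inhibitor p21 that KLF4 and KLF6 can activate, was low at 1.34 ± 0.380 against 1.00 ± 0.117 CPM and did not pass (adjusted p = 0.16, edgeR's quasi-likelihood test). LGALS3, a gene that KLF3 represses in other cells, was at 7.15 ± 1.07 against 6.31 ± 0.943 CPM and did not pass. CDKN1A, LGALS3, SMAD7, NR3C1 and the cofactors and factors given without a call were named after their values were seen. When β-alanine library 2, control library 2 or control library 3 was left out, 3 of the targets fell. These fits called 17.0%, 17.5% and 21.3% of all tested genes. Over the pathway lists together, 17 of 88 tested genes rose and 7 fell, beside 27.9% called over all tested genes (14.1% rising and 13.8% falling). These lists were not tested as sets.

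**Figure D5:**
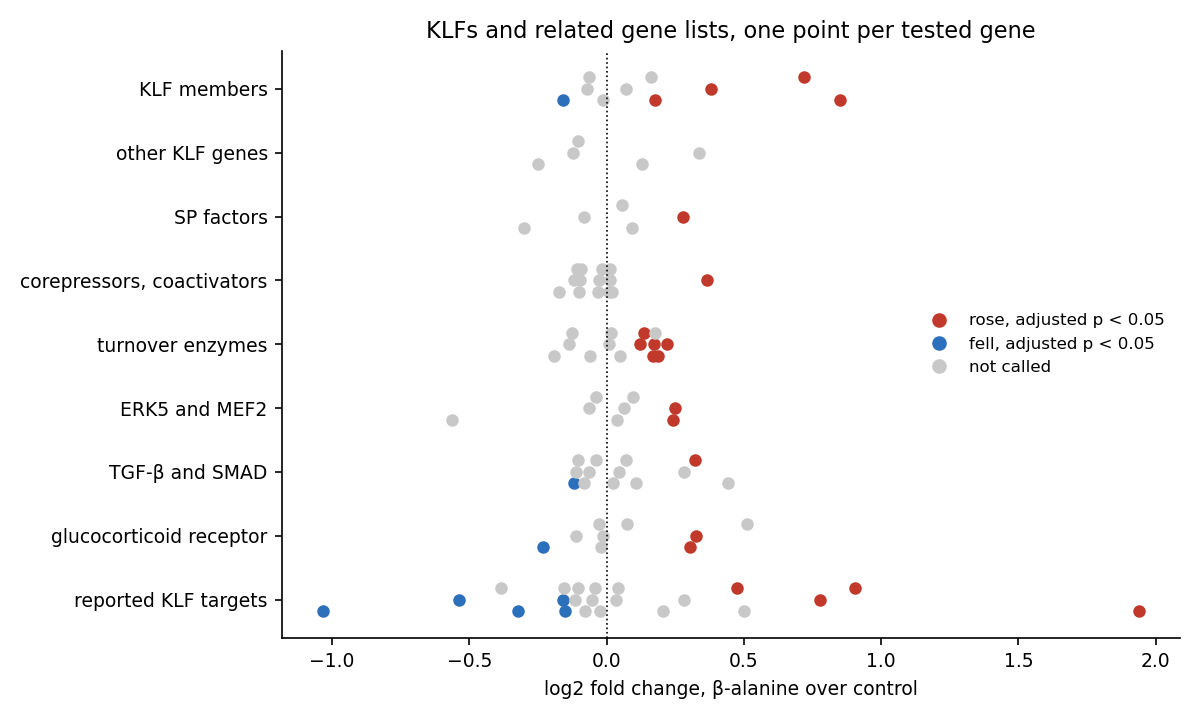
Fitted log2 fold change (β-alanine over control) of every tested gene in the KLF members and 8 related lists, with genes that rose in red, genes that fell in blue and genes not called in grey. The KLF members hold 4 rises and 1 fall, and the other KLF genes hold none.

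The genes whose 6 library values were most like those of KLF9 and KLF3 were found over 13840 genes, as the mean absolute difference of log2 levels centred on the control mean. For KLF9 they were CCDC7 (0.0206), PPIL3 (0.0281) and CMTM6 (0.0334). For KLF3 they were MORC2 (0.0142) and ATF7IP (0.0143). All of these points share the same 6 libraries.

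Some features of the libraries moved with treatment. The small cell lung cancer label was checked against 11 markers. SYP, CHGA and UCHL1 were present and rose, at 86.3 ± 4.26, 28.8 ± 2.41 and 57.1 ± 7.08 CPM after β-alanine against 61.0 ± 4.23, 19.6 ± 2.06 and 42.6 ± 0.807 CPM in controls, while INSM1 and POU2F3 were too low to be tested, and YAP1 was at 129 ± 5.82 against 124 ± 4.91 CPM and did not pass. NCAM1 fell. Blood cell markers summed to 0.511 to 0.929 CPM after β-alanine and 1.03 to 1.22 CPM in controls. Endothelial markers summed to 1.88 to 2.15 CPM after β-alanine and 1.03 to 1.33 CPM in controls, and ERG, the 1 gene of that list that was tested, rose by 1.11 ± 0.28 on the log2 scale (SE; adjusted p = 0.00544, edgeR). CD3D and MS4A1 were at 0 counts in all libraries. Fibroblast markers, COL3A1 and DCN above all, summed to 946 to 1054 CPM after β-alanine and 1196 to 1239 CPM in controls. Others of that list were nearly absent. COL1A2 and FAP were too low to be tested, with means of 0.11 and 0.036 CPM after β-alanine and 0.054 and 0 CPM in controls. PDGFRA was at 2.15 against 2.56 CPM. Of 7 fibroblast markers tested, 4 fell and 1 rose, beside 13.8% and 14.1% of all tested genes. Of 13 small RNAs without a poly(A) tail, RN7SL1 was the 1 tested and rose, at 8.93 to 14.04 CPM after β-alanine against 5.19 to 5.91 CPM in controls, and each of the others was below 1 CPM in every library. Mitochondrially encoded mRNAs summed to 38313 to 40863 CPM after β-alanine and 41484 to 47625 CPM in controls. The part of these differences in the KLF values was not tested.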

How the data were processed

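Polyadenylated RNA of 6 DMS114 libraries was measured. The deposited table holds the authors' raw read counts, 1 row per symbol. The submitters' processing notes name STAR 2.7.3a, featureCounts 2.0.1, Trimmomatic 0.39, bcl2fastq, DESeq2 and the build GRCh38. Annotation, settings and strand handling were not given in the sources used here. Groups and numbers came from the sample titles. Genes passing filterByExpr (minimum count 10) were fitted with edgeR 4.0.16 in R 4.3.3, TMM scaling and the robust quasi-likelihood test, two-sided, with Benjamini-Hochberg adjustment over all genes tested. Standard errors are the log2 fold change over the square root of F. Depth ran from 14433801 to 32909568 counts. Libraries of a group differed by more than sampling noise (chi-square per gene 1.95 to 4.91, the highest values being those of β-alanine library 1). On simulated counts (17105 genes) recovery was 68.75% for genes changed 1.25-fold, 75.51% for 1.5-fold, 93.62% for 2-fold and 97.96% for 3-fold, with 8 false calls of 170. The simulation changed 47 to 49 genes at each fold, far fewer than were called here, and set no library apart from its group. Its rates may therefore differ from those in these data.

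The members and lists were chosen with earlier results of these data known. Named genes were all members, up to 4 called genes with the smallest p in each list, and the closest profiles to 1 riser and 1 faller. These were the riser and the faller with the smallest p in the main fit (average log2 CPM of at least 1, pseudocount 0.5 CPM). Alternatives were other scalings, filters and tools, a stricter threshold, a replicate block, thinning and leaving out each library. Recomputing levels and family shares under other scalings or without each library was added after seeing the data. Gene positions and promoters came from RefSeq (GRCh38.p14) and exon lengths from GENCODE release 29. Promoter windows of 8 of 10 members were searched, and chromosome 8, which holds KLF10, was left out of that search. A few genes that the rule or the marker lists name are not reported here. Figures used matplotlib 3.10.9.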

Additional observations from a re-analysis of the deposited data

How the results depend on the processing

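The number of members that rose stayed at 3 or 4 under every other scaling, filter, tool and threshold, with 3 after thinning to the smallest library, and was 2 to 4 when a library was left out (2 without control library 3). The number that fell rests on KLF3. It was 0 with library totals, no filter on low counts, the DESeq2 Wald test, limma-voom, thinning or an adjusted p under 0.01, where 1 member was lower at an unadjusted p under 0.05 in each of these edgeR, DESeq2 and limma fits. It was 0 to 1 when a library was left out. KLF9 and KLF10 were called in every fit. Over the related lists together the number that fell went from 7 to 4 with the DESeq2 Wald test or an adjusted p under 0.01, and was 3 to 17 when a library was left out (17 without β-alanine library 1, 3 without control library 2), while the number that rose was 12 to 17. Over all tested genes 36.2% were called without β-alanine library 1 and 17.5% without control library 2. The sign of KLF2 turned, without a call, with library totals (log2 0.0046), a replicate block (0.0053) or thinning (0.052), and ran from -0.088 to 0.12 without each library. That of KLF4 turned with thinning (-0.092) and ran from -0.21 to 0.37 without each library. The cause was not tested.

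Same-numbered libraries did not deviate together in every pair (r across 13851 genes of 0.107, -0.007 and 0.184). β-alanine libraries 1 and 3 correlated best with their own number, and β-alanine library 2 did not. β-alanine library 3 had r of -0.169 with control library 1, and β-alanine library 1 had -0.122 with control library 3. Whether the numbers mark pairs cannot be told from these values, and the main fit took them as names. With the replicate block 4 members rose and 1 fell, as without it, and over all genes 2564 rose and 2608 fell against 2441 and 2389. Without each library these counts ran from 1501 to 3204 and from 1473 to 3294, and at an adjusted p under 0.01 they were 1454 and 1391. KLF4 had no value with the CPM filter or an adjusted p in DESeq2. Depth limits KLF4 and KLF5, with 11 to 72 counts a library.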

Other observations

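KLF2 varied within both groups by similar amounts in libraries of the same number. Its levels were 16.4 and 16.3 CPM in the β-alanine and control libraries numbered 1, 15.7 and 14.6 CPM in those numbered 2, and 12.3 and 13.2 CPM in those numbered 3. The labels do not say that a number marks a shared culture or day, and the replicate block left KLF2 uncalled (adjusted p = 0.971 with edgeR, and 0.467 to 0.984 over all alternatives).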
